A study of Homo sapiens with 6 samples.

Results

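RXFP2 and the other relaxin family receptors and ligands were examined in SUM159 breast cancer cells with and without silencing of spinophilin. The family was brought into view by RXFP2, a member selected on its higher value in the same comparison of silenced and control arrays, and the other members were added by family name. All 10 genes of the list (RXFP2, RXFP1, RXFP3, RXFP4, RLN1, RLN2, RLN3, INSL3, INSL4 and INSL5) had a transcript cluster on the array, 1 each, out of 53617 transcript clusters and 14884 named genes. A transcript cluster combines the probes spread along the transcripts of a gene.

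Spinophilin-silenced SUM159 cells carried a lentiviral shRNA, a short hairpin RNA, directed against spinophilin, and control SUM159 cells carried a scrambled shRNA in the same kind of particle. SUM159 is a human cell line used in the study as a basal-like model. Both groups were stably transduced, selected with puromycin and, per the culture methods, grown in medium with insulin and hydrocortisone, and a single hairpin sequence was used against spinophilin. RNA of 3 silenced and 3 control samples was hybridized to Affymetrix Human Gene 2.0 ST arrays. The study describes its arrays as independent biological replicates, and the samples of each group are labelled 1, 2 and 2d. What 2d stands for is not explained, and a repeat of sample 2 cannot be told apart from a separate culture by the label. Every interval and p with n = 3 therefore rests only on the spread between these samples and treats 2 and 2d as separate. In the limma fit, the spread of each gene is moderated toward that of all transcript clusters. With 2 and 2d averaged, 12 transcript clusters passed the threshold in place of 110. Spinophilin itself was not analysed here.

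Relaxin family peptides are small hormones related to insulin, and their receptors (RXFP) are G protein-coupled receptors. RXFP1 and RXFP2 carry a large extracellular domain of leucine-rich repeats and raise cyclic AMP, whereas RXFP3 and RXFP4 have a short extracellular end and lower it. INSL3, a hormone of the Leydig cells of the testis, signals through RXFP2 and is needed for the descent of the testis. RLN2, the circulating relaxin of pregnancy, signals mainly through RXFP1, RLN3 is a brain peptide that signals through RXFP3, and INSL5 is a gut hormone that signals through RXFP4.

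The sequences just upstream of RXFP2, RLN1 and RLN2 are shown. RXFP2 is the member that brought the family into view, and RLN1 and RLN2 are close copies. Each is the stretch of 250 bases before a RefSeq start site (GRCh38.p14), read 5′ to 3′ on the strand of the gene. RXFP2 lies on the plus strand at chr13:31739276-31739525, and its capitals mark runs of at least 8 bases that are all A or T. RLN1 at chr9:5339877-5340126 and RLN2 at chr9:5304717-5304966 lie on the minus strand, and their capitals mark the bases that differ between them in a global alignment.
RXFP2: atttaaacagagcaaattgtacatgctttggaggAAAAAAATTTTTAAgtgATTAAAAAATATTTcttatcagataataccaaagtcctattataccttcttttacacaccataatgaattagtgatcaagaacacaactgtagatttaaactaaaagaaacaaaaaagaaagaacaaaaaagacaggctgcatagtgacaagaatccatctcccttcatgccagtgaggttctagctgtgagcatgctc
RLN1: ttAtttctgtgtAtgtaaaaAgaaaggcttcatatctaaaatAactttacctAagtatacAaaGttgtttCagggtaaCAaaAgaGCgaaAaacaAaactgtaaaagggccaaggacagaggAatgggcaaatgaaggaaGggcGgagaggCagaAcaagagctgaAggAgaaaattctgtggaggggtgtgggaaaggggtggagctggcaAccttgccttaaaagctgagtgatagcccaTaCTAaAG
RLN2: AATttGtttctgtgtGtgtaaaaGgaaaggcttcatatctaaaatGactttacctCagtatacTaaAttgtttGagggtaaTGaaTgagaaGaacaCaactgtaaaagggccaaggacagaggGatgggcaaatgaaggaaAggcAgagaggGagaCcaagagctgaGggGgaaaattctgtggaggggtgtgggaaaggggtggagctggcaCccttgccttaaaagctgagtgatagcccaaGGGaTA

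The RXFP2 window was poor in G and C, at 32.0%, and only 2.64% of 35116 windows upstream of RefSeq start sites had less. It held no CpG, a property of 6.06% of all windows, and its 2 A or T runs covered 28 bases, where 35.2% of all windows had any such run. The RLN1 and RLN2 windows were identical at 221 of 253 aligned positions (87.4%), with 26 mismatches and 6 gap positions. The next most alike pair among the family, RLN1 and INSL4, matched at 56.9%. Windows of 11 start sites were read for 9 members, all but INSL3 (a pair of start sites each for RXFP1 and RLN2). Of these 11, 0 held the cyclic AMP response element TGACGTCA on either strand (1.65% of all windows) and 0 held the NR5A1 site CAAGGTCA (1.14%), the motif of a steroidogenic nuclear receptor. The AP-1 motif TGANTCA was in 0 (6.57%), TATAAA in 2 (10.7%), CCAAT in 4 (32.0%) and the GC box GGGCGG in 3 (42.6%). TATAAA was in the windows of RLN3 and INSL5. These are matches of letters, and no binding was measured.

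RXFP2 had 5.48, 5.59 and 5.88 in spinophilin-silenced cells, against 3.69, 3.24 and 3.30 in control cells (log2 expression, in the order 1, 2 and 2d). The groups were far from overlapping, since the lowest silenced array lay 1.79 above the highest control array. RXFP2 averaged 5.65 ± 0.21 in silenced cells and 3.41 ± 0.24 in control cells (SD, n = 3 each). The difference was 2.24 on the log2 scale (standard error 0.16, 95% interval 1.87 to 2.61), which is 4.72-fold. In bulk RNA, more cells with the transcript and more transcript per cell cannot be told apart. This difference is what picked the gene, so no test of it is given. With any 1 array left out, it stayed between 2.12 and 2.38.

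The position of RXFP2 within each array changed with it. Its value lay above 56.2%, 58.4% and 64.4% of all transcript clusters on the silenced arrays, against 22.4%, 15.6% and 16.4% on the control arrays. It was above the array median on all 3 silenced arrays and below the lower quartile on all 3 control arrays. How much of the control value is RXFP2 transcript and how much is background was not tested, as the values have no detection call. Of 13404 transcript clusters whose control mean lay under the lower quartile of control means (3.87), 7 had a silenced mean above the median of silenced means (5.21). RXFP2 was the 1 of these 7 with a gene symbol here, and the other 6 had log2 fold changes of 1.63 to 3.11. This count was made after the value of RXFP2 was known.

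**Figure D1:**
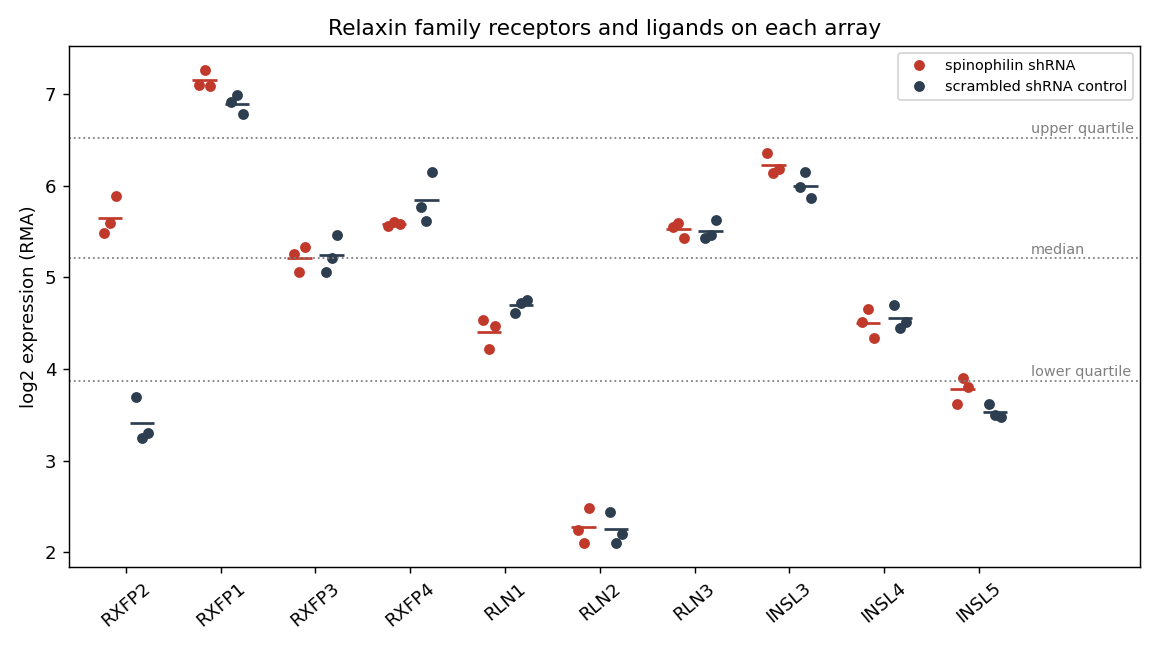
Log2 expression (vertical axis, RMA values) of the 10 relaxin family genes on each array, with spinophilin shRNA arrays in red on the left and scrambled shRNA control arrays in dark blue on the right of each gene. Points are arrays, short bars are group means (n = 3 each) and dotted lines are quartiles averaged over the 6 arrays. RXFP2 moves across the lower quartile and the median, and the groups of the other members lie close together.

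RXFP1, the receptor most closely related to RXFP2, had high values in both groups, though no detection call tells transcript from background. Its values were 7.10, 7.26 and 7.09 in silenced cells, against 6.91, 6.99 and 6.78 in control cells. All silenced arrays lay above all control arrays, by as little as 0.10. The log2 fold change was 0.26 (standard error 0.09, 95% interval 0.03 to 0.48) and missed the threshold (adjusted p = 0.605 from limma). RXFP1 was above the upper quartile of the array on all 6 arrays.

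RXFP3, the receptor of relaxin-3, had 5.25, 5.06 and 5.33 in silenced cells, against 5.06, 5.21 and 5.46 in control cells. Its groups overlapped, with a log2 fold change of -0.03 (95% interval -0.33 to 0.27, adjusted p = 0.982 from limma). RXFP4, the INSL5 receptor, had 5.56, 5.60 and 5.58 in silenced cells, against 5.77, 5.61 and 6.14 in control cells. Silenced arrays were the lower ones and did not overlap with control arrays, but by a margin of only 0.01. Its log2 fold change of -0.26 (standard error 0.14, 95% interval -0.59 to 0.06) did not pass (adjusted p = 0.773 from limma), and without control array 2d it was -0.11.

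Among the ligands, INSL3, the hormone that acts on RXFP2, had 6.36, 6.13 and 6.18 in silenced cells, against 5.98, 6.15 and 5.86 in control cells. The groups overlapped at control array 2. The log2 fold change was 0.23 (standard error 0.11, 95% interval -0.03 to 0.48, adjusted p = 0.735 from limma), so a rise above 1.39-fold lay outside the interval. INSL3 was above the array median on all 6 arrays.

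RLN1, the close copy of RLN2, had 4.53, 4.22 and 4.47 in silenced cells, against 4.61, 4.72 and 4.75 in control cells. The silenced arrays were all below the control arrays, by as little as 0.08. Its log2 fold change of -0.29 (standard error 0.11, 95% interval -0.54 to -0.04) was the most negative of the family and missed the threshold (adjusted p = 0.603 from limma). RLN2, the circulating relaxin, had 2.24, 2.10 and 2.49 in silenced cells, against 2.45, 2.11 and 2.20 in control cells. These lay above only 1.49% to 5.20% of the transcript clusters of an array, and the groups overlapped (log2 fold change 0.03, 95% interval -0.29 to 0.34, adjusted p = 0.986 from limma). RefSeq spans of RLN1 and RLN2 overlap on the same strand, so probes of 1 gene may also bind transcripts of the other, and their values are uncertain.

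RLN3 had 5.55, 5.59 and 5.42 in silenced cells, against 5.43, 5.46 and 5.62 in control cells, overlapping groups with a difference of 0.02 on the log2 scale (95% interval -0.20 to 0.23, adjusted p = 0.988 from limma). INSL4, a peptide of the early placenta, had 4.51, 4.65 and 4.34 in silenced cells, against 4.70, 4.45 and 4.51 in control cells. Its groups overlapped too (log2 fold change -0.05, 95% interval -0.32 to 0.22, adjusted p = 0.966 from limma). INSL5 had 3.62, 3.90 and 3.81 in silenced cells, against 3.61, 3.50 and 3.48 in control cells. The groups were separated by 0.00414, and 5 of the 6 arrays lay below the lower quartile. The log2 fold change of INSL5 was 0.25 (standard error 0.10, 95% interval 0.01 to 0.48, adjusted p = 0.656 from limma).

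**Figure D2:**
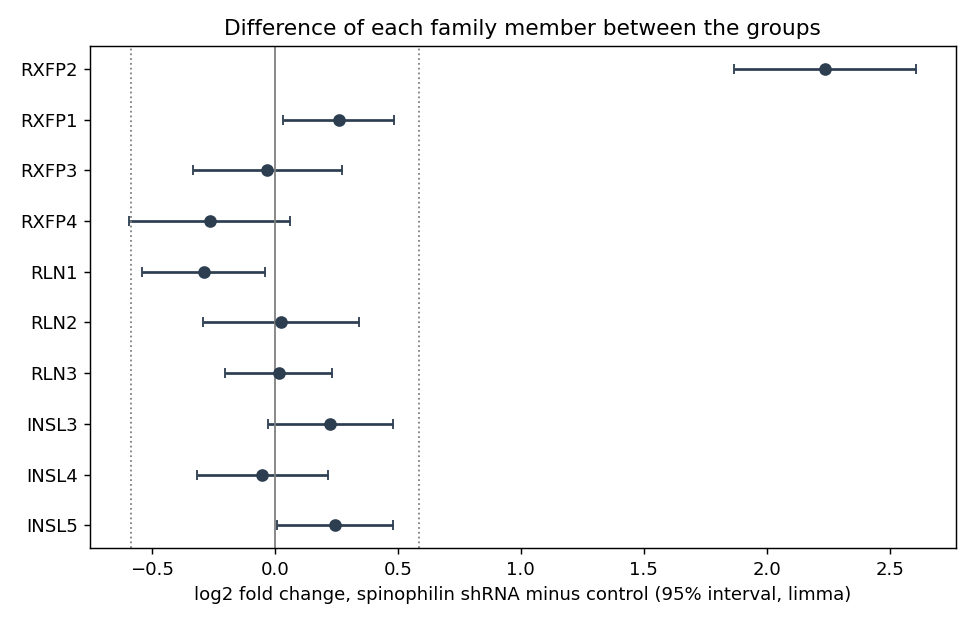
Log2 fold change of each family member, spinophilin shRNA minus scrambled shRNA control (points), with 95% intervals from limma (bars). Dotted lines mark a change of 1.5-fold. The intervals of the 9 members other than RXFP2 reach from -0.59 (RXFP4) to 0.48 (RXFP1, INSL3 and INSL5). That of RXFP2, which was picked on this same difference, runs from 1.87 to 2.61.

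An adjusted p under 0.05 from limma was reached by 0.205% of all transcript clusters in either direction (110 of 53617) and by 0.17% in the upward direction. RXFP2 was selected on its value in this same contrast, so nothing is read from its place among these calls. The count of 110 was lowered to 24, 21 and 48 without silenced arrays 1, 2 and 2d, and to 15, 17 and 34 without control arrays 1, 2 and 2d. It was 40 with the replicate label as a block and 0 in the unmoderated tests, and RXFP2 was not among the calls in these fits or with 2 and 2d averaged. Of the 9 members other than RXFP2, 0 were called, and 3 (RXFP1 and INSL5 higher, RLN1 lower) had an unadjusted p under 0.05, a level reached by 7.39% of all transcript clusters. Silenced and control arrays did not overlap for 4 of these 9 (RXFP1 and INSL5 higher, RXFP4 and RLN1 lower), against 12.7% of all transcript clusters. Without control array 2d or silenced array 2, 0 of the 9 had an unadjusted p under 0.05. The threshold of the study's methods, at least 1.5-fold at an unadjusted p below 0.05, was met by 0 of the 9, against 1.33% of all transcript clusters. The median log2 fold change of the 9 was 0.02, against -0.00 over all transcript clusters, and 5 of them lay above 0.

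The chromosomal surroundings of RXFP2 were compared through the 6 measured genes on each side in RefSeq order on chromosome 13. Measured here means having a transcript cluster with a symbol, so genes that lie in between may be missing. Of these 12 genes 0 were called (0.205% of all transcript clusters), 2 had an unadjusted p under 0.05 (7.39%) and 3 did not overlap between the groups (12.7%). Their differences ran from -0.35 to 0.39 on the log2 scale around a median of 0.07. The nearest measured genes were HSPH1, which encodes a heat shock protein, and the pseudogene EEF1DP3. They differed by 0.07 (standard error 0.086) and 0.08 (standard error 0.080) on the log2 scale. FRY, the next measured gene after EEF1DP3, encodes a protein linked to the mitotic spindle. FRY averaged 5.64 ± 0.20 in silenced cells and 5.25 ± 0.094 in control cells (SD, n = 3 each). Its arrays did not overlap between the groups, and its log2 fold change of 0.39 (standard error 0.12) did not pass (adjusted p = 0.499 from limma). MICOS10P1, the farthest on that side, had -0.35 (adjusted p = 0.630 from limma). ALOX5AP, the farthest on the other side, had 0.18 (standard error 0.087). The cluster of INSL6, INSL4, RLN2 and RLN1 on chromosome 9 had log2 fold changes of 0.19, -0.05, 0.03 and -0.29, and none of these 4 genes was called.

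**Figure D3:**
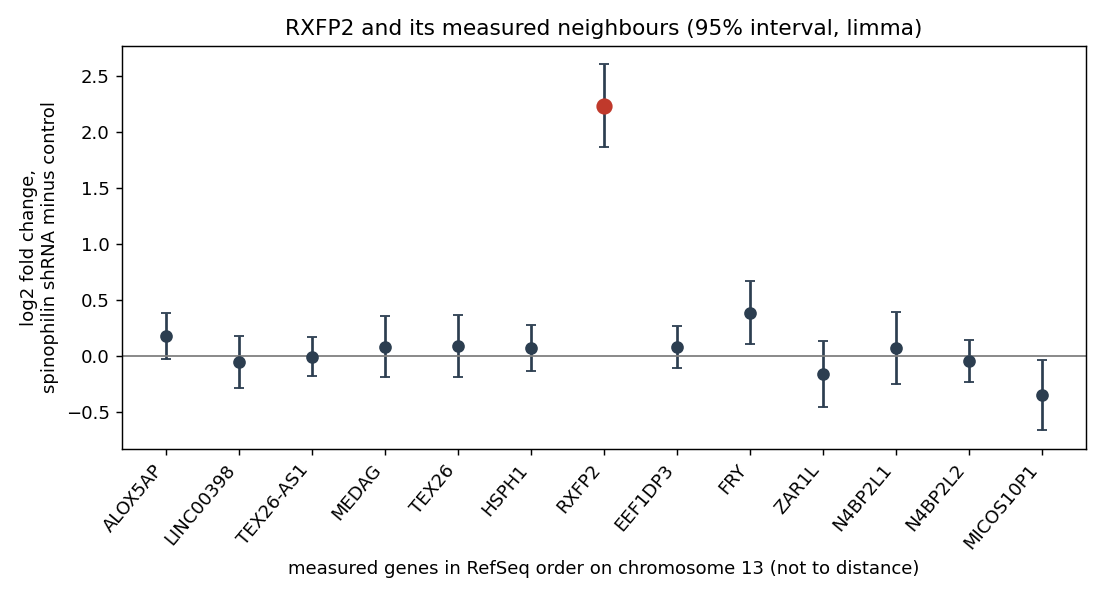
Log2 fold change, spinophilin shRNA minus scrambled shRNA control, of RXFP2 (red) and the 6 measured genes on each side of it on chromosome 13 (dark blue), with 95% intervals from limma. The horizontal axis gives the order of the genes and no distance. RXFP2 stands at 2.24 and its neighbours lie between -0.35 and 0.39.

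The genes with array profiles most like that of RXFP2 were found by the root mean square difference of their centred values over the 6 arrays. LINC02864, a long non-coding RNA, was closest at 0.30 on the log2 scale. The cancer-testis genes CT83 at 0.34, GAGE12C at 0.35, GAGE12J at 0.38 and GAGE12H at 0.39 followed. The GAGE genes are members of 1 family, so probes of 1 may also bind transcripts of another, and their profiles may not be separate. The median difference from RXFP2 over all named genes was 1.14. A gene with the same value on all arrays would lie near that, because the size of the change of RXFP2 sets it. Of these 5, LINC02864 had its highest silenced value on array 2d, as RXFP2 did, and CT83 and the GAGE genes had their lowest silenced value there. CT83 had 8.26, 8.43 and 7.88 in silenced cells, against 6.27, 6.29 and 6.17 in control cells. These genes were picked for their likeness in the same contrast, so no test of them is given.

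**Figure D4:**
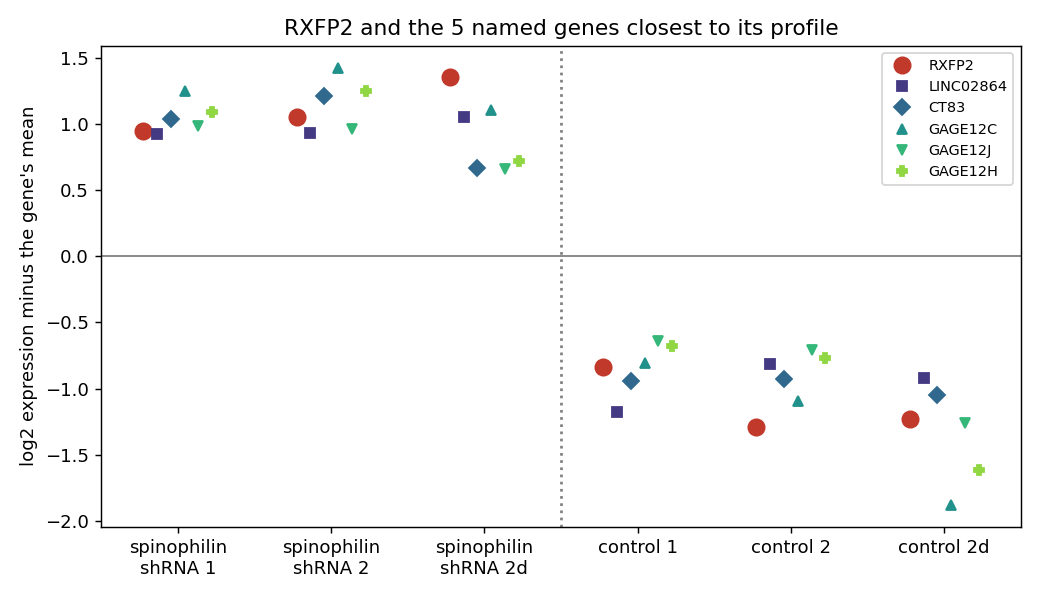
Log2 expression minus the mean of each gene over the 6 arrays (vertical axis) for RXFP2 and the 5 named genes closest to it, on the spinophilin shRNA arrays (left) and the control arrays (right). All 6 genes lie above 0 on the silenced arrays and below 0 on the control arrays, and their spread is widest on control array 2d.

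Genes that act around the relaxin receptors were compared as lists, counted by the genes with a named transcript cluster here. Together the lists of relatives and of signalling steps held 217 genes, 126 of them measured. Of these 126, 0 were called at an adjusted p under 0.05 and 11 had an unadjusted p under 0.05 (3 higher and 8 lower), against 0.205% and 7.39% of all transcript clusters. Their median log2 fold change was -0.01. Lists this short can hold 0 calls at the share of 0.205%, so a count of 0 does not show an unchanged pathway.

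Among 8 measured relatives of insulin and relaxin, 0 were called, against 0.205% of all transcript clusters. INSL6, a testis peptide of the same superfamily, had a log2 fold change of 0.19 (standard error 0.12), INSR, the insulin receptor, 0.03 (standard error 0.090) and IGF1R, the receptor of insulin-like growth factors, 0.16 (standard error 0.092). IRS1, an adaptor of these receptors, had the highest value of the list at 0.27, and IGF2R, which clears IGF2, the lowest at -0.15. Among 12 leucine-rich repeat receptors related to RXFP2 and their partners, 0 were called and 10 lay above 0 (26271 of all 53617 transcript clusters). The list median was 0.03, and 0 of the 12 had an unadjusted p under 0.05. FSHR, the receptor of follicle-stimulating hormone, had 0.18, the luteinizing hormone receptor LHCGR 0.11 and the thyrotropin receptor TSHR -0.12. Of 8 proteases and other enzymes that mature peptide hormones, 0 were called, from -0.16 for CPE to 0.16 for CPD, with -0.02 for FURIN.

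In the cyclic AMP branch downstream of RXFP2, the measured genes were 2 of 13 listed G protein alpha subunits, 10 of 10 adenylyl cyclases, 9 of 17 effectors, 5 of 16 phosphodiesterases and 18 of 23 CREB factors and response genes. None of these measured genes was called, against 0.205% of all transcript clusters. An unadjusted p under 0.05 was reached by 0, 1, 1, 1 and 2 of them in that order, against 7.39% of all transcript clusters. GNAS, the stimulatory G protein subunit, had 6.62, 6.47 and 6.56 in silenced cells, against 6.54, 6.55 and 6.58 in control cells, and the groups overlapped (log2 fold change -0.01, standard error 0.079). Of 10 adenylyl cyclases, which make cyclic AMP, 7 lay below 0 (27346 of all 53617 transcript clusters) and 0 were called. ADCY7 had the lowest value of these, with 5.15, 5.19 and 5.01 in silenced cells, against 5.28, 5.35 and 5.50 in control cells. Its log2 fold change was -0.26 (standard error 0.096, adjusted p = 0.618 from limma), and ADCY5 had the highest at 0.16.

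Of 9 measured cyclic AMP effectors, AKAP12, an anchor of protein kinase A, had the highest log2 fold change. AKAP12 had 7.11, 6.99 and 6.82 in silenced cells, against 6.66, 6.58 and 6.41 in control cells. The groups did not overlap, and the log2 fold change of 0.42 (standard error 0.11) did not pass (adjusted p = 0.387 from limma). PDE8B, a phosphodiesterase that degrades cyclic AMP, had 5.50, 5.54 and 5.58 in silenced cells, against 6.06, 6.01 and 5.76 in control cells. Its log2 fold change of -0.40 (standard error 0.10) did not pass (adjusted p = 0.364 from limma), and the other 4 measured phosphodiesterases lay between -0.20 and 0.00. Of 18 CREB factors and cyclic AMP response genes 0 were called, against 0.205% of all transcript clusters. FOS and FOSB, early response genes, had 0.29 and 0.26, CREB1 had 0.16 and CREM had -0.16.

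Of 18 measured genes that switch receptors and G proteins off, 0 were called, against 0.205% of all transcript clusters. RGS20, a regulator of G protein signalling, had the lowest log2 fold change at -0.24 (standard error 0.094, adjusted p = 0.638 from limma) and RGS8 the highest at 0.22. The 11 measured genes, of 26 listed, of the PI3K and MAPK relay lay between -0.21 (AKT1) and 0.06 (SOS1). Of 31 listed matrix and vessel genes that relaxin is known to affect, only 16 were measured. Of these 16, 0 were called and 4 had an unadjusted p under 0.05, all lower, against 7.39% of all transcript clusters in either direction. That count was 1 or 2 without any 1 array and 2 with the replicate block. VEGFC, a growth factor of lymphatic vessels, had 7.30, 7.17 and 7.21 in silenced cells, against 7.72, 7.59 and 7.64 in control cells. The groups did not overlap and the log2 fold change was -0.42 (standard error 0.081, adjusted p = 0.187 from limma), the smallest adjusted p of all 126 genes. MMP13, a collagenase, had -0.46 (standard error 0.19, adjusted p = 0.651 from limma) with overlapping groups, and TIMP1, an inhibitor of metalloproteinases, had the highest value of the list at 0.15. Of 9 partners of RXFP3 and RXFP4 in neuropeptide signalling 0 were called, from -0.23 for NPY1R to 0.17 for AVP.

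**Figure D5:**
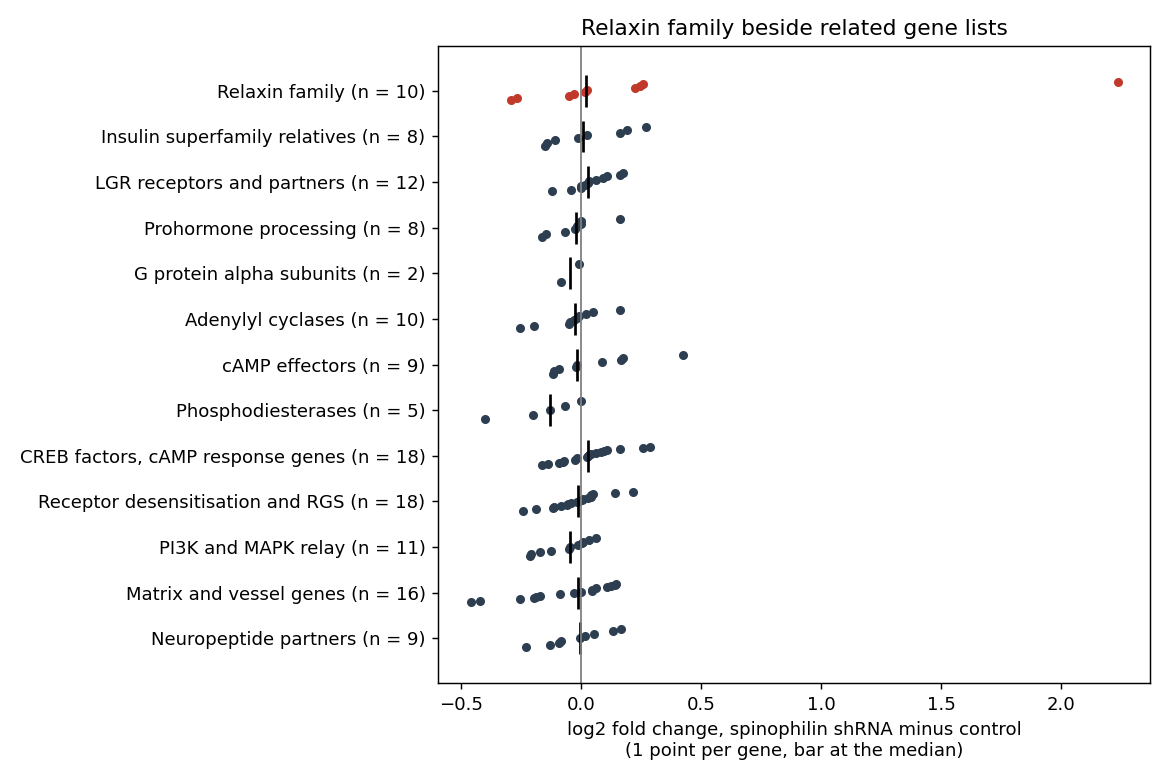
Log2 fold change, spinophilin shRNA minus scrambled shRNA control, of each measured gene (points) in the relaxin family (red) and in 12 related lists (dark blue), with a bar at each median. RXFP2 is the point at 2.24, and the points of the related lists lie between -0.46 and 0.42.

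The cell line was checked by whole marker lists. The 6 measured mesenchymal markers averaged 8.42 (AXL) to 12.6 (VIM) in silenced cells and 8.51 (AXL) to 12.6 (VIM) in control cells, all above the upper quartile of the arrays. The 14 measured luminal markers averaged 3.69 (PGR) to 8.41 (KRT18) in silenced cells and 3.76 (AGR2) to 8.44 (KRT18) in control cells. Not all of these were dim, since KRT18 and XBP1 lay above the upper quartile in both groups and TFF3 averaged 6.57 in silenced cells and 6.52 in control cells, whereas ESR1, the oestrogen receptor, averaged 4.23 in silenced cells and 4.34 in control cells. Of 6 mesenchymal and 14 luminal markers measured, 0 were called, against 0.205% of all transcript clusters. Of 5 measured markers of Leydig cells, INSL3 among them, 0 were called, and STAR averaged 4.14 in silenced cells and 4.17 in control cells. Blood cell markers measured were CD14 and LYZ, at -0.08 and 0.13. Array medians lay between 5.19 and 5.23, and 2 arrays of the same group differed with an SD of 0.267 to 0.306 over all transcript clusters.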

How the data were processed

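Gene expression was measured in 3 spinophilin-silenced and 3 control samples of SUM159 cells, 1 array each. The authors made the deposited log2 values in Partek 6.6 by RMA, that is background correction, quantile normalization over all arrays and median polish per transcript cluster. The base of the logarithm was taken from the range of the values, up to 13.7. RMA draws dim values together and makes every change relative to the other transcripts of an array. No source used here gives the build of the array annotation. Symbols came from the platform annotation, updated through RefSeq gene identifiers: 16098 transcript clusters had 1 symbol, 0 several and 37519 none here.

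All 53617 transcript clusters were fitted with limma 3.58.1 in R 4.3.3 (lmFit, eBayes, silencing alone) with Benjamini-Hochberg adjustment over all of them. The methods name a two-way analysis whose other factor is not given, so the replicate label was tried as a block. The fit was tested on simulated data. Genes with several transcript clusters were represented by the brightest. Named genes were all members, the extremes and key steps of each list, neighbours of RXFP2 and the 5 closest profiles. Members and lists were chosen with earlier results of these data known. Of the listed G protein beta and gamma subunits, 0 had a transcript cluster with a symbol here. Whether the array carries them among the transcript clusters without a symbol was not examined. Alternatives changed the filter, normalization, variance model, test, averaging and arrays used. The number of arrays limits precision.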

Additional observations from a re-analysis of the deposited data

How the results depend on the processing

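The log2 fold change of RXFP2 lay between 2.12 and 2.38 in all 15 alternatives, and of the other 9 members 0 were called in any of the 16 alternatives run. Of the members, 1 was called without dim transcript clusters, after renewed median, quantile or cyclic loess normalization, with trend and robust variances, by the methods' threshold and without any 1 array. This is RXFP2, which was chosen by the same contrast, so these calls are no sign of stability. Of the 10 members 0 were called with the replicate label as a block (40 transcript clusters called), with the mean of 2 and 2d as 1 sample per group (12), and in the unmoderated test with silencing alone or with the replicate block (0 each, although 3764 and 3588 had an unadjusted p under 0.05 there, with 2 of the members in each). Averaging leaves fewer samples, and the causes of the other losses were not tested. By the methods' threshold 712 transcript clusters passed, and leaving out 1 array gave 15 to 48, against 110.

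Small differences near 0 changed sign. With arrays 2 and 2d averaged, RXFP3 was 0.0251 and RLN2 -0.0316. Leaving out 1 array moved RXFP3 between -0.122 and 0.0786, RLN2 between -0.0792 and 0.122, RLN3 between -0.0202 and 0.0746 and INSL4 between -0.125 and 0.0304. The pathway lists had 0 called genes in each of the 8 alternatives run for them. Deviations of same-numbered arrays from their group means correlated at 0.0118 (number 1), 1.57e-05 (number 2) and 0.0926 (2d). Only for 2d was the own number the best match. With 3 arrays per group, these correlations cannot decide whether the numbers are pairs. The main fit left them unpaired because the other factor of the study's two-way analysis is not given. RLN2 and INSL5 could not be tested without dim transcript clusters, and the mean of several transcript clusters per gene was not run because each member had 1. Values this low on the arrays limit what can be said of RLN2, INSL5 and the control level of RXFP2.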
